A study of Mus musculus with 96 samples.

Results

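Embryos of 12 h after fertilization were compared with embryos of 0 h. The comparison takes all 5 libraries that the labels give as 12 h and all 5 that they give as 0 h, 10 of the 96 libraries of the series, and no measured value entered the choice. The embryos are mouse, of strain C57BL/6J, and since they were lysed singly each library is taken as 1 whole embryo. Females had been superovulated with PMSG and, 46 h later, hCG, and paired with C57BL/6J males. Collection began 12 h after hCG, from females found plugged at least 2 h earlier, and went on every 2 h. Cumulus cells were taken off with hyaluronidase, the embryos were kept in KSOM medium, and no treatment was given. The whole 0 h to late 2-cell series went through cDNA synthesis as 1 cohort, by the series' design text. The labels do not say which females gave which embryos or how the hour of fertilization was set, so the replicates are separate embryos that may share a mother.

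The mouse egg is ovulated in the metaphase of its second meiotic division. Entry of the sperm releases that arrest, the egg discards one set of sister chromatids in a polar body, the sperm chromatin exchanges protamines for histones, and the male and female chromosomes form separate pronuclei and are replicated before the first cleavage. The genome is largely silent at first, so protein synthesis runs on messenger RNA stored by the oocyte. Enzymes that lengthen and shorten poly(A) tails decide which stored messages are used and which are destroyed. The cDNA was primed on poly(A) tails (SMART-Seq v4), so more or fewer transcripts and longer or shorter tails cannot be told apart in any value given here.

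Levels are CPM, gene counts brought to a total of 1000000 per library and adjusted by TMM factors over the 10 libraries, and values of single embryos are listed in the order of their replicate numbers. A gene is called when edgeR's quasi-likelihood test gives an adjusted p under 0.05. Changes are log2 of 12 h over 0 h with their standard error (SE), and averages are means ± SD over the 5 embryos of a group (n = 5). The scaling sets the typical gene to no change, so each value is a share of the embryo's poly(A) RNA and not an amount per embryo, and less RNA in an embryo cannot be told apart from a smaller share. CPM is not divided by transcript length, so levels are compared between embryos and not between genes. Gene totals ran from 1047751 to 1791808 counts at 0 h and from 1114096 to 3550420 at 12 h. Across genes, the libraries correlated at 0.903 to 0.944 within 0 h, at 0.873 to 0.928 within 12 h and at 0.745 to 0.841 between the groups. All 15 oocyte and zygote markers were present in both groups, and their summed level had a median of 43292 CPM at 0 h and 49145 CPM at 12 h. Of 14 sperm markers, 6 were at 0 in all 10 libraries, Tnp1, Tnp2, Smcp, Spem1, Spata18 and Plcz1. The list summed to between 47.4 and 86 CPM everywhere, and most of each sum was 1 gene, Odf2, at 42.3 to 83.5 CPM. The 17 markers of the 2-cell program summed to 353 to 523 CPM at 0 h and to 177 to 258 CPM at 12 h. Most of each sum was Sp110 and Tcstv1, both already present at 0 h. Sp110 lay at 138.1 to 374.7 CPM at 0 h and at 87.8 to 167 CPM at 12 h. Tcstv1 lay between 41.5 and 188 CPM over both groups. Apart from Tcstv3 and Eif1a, the other members, Zscan4c among them, stayed under 6 CPM in all 10 libraries. The sums therefore say little about those members. The 3 members that passed the filter on low counts, Sp110, Tcstv1 and Tcstv3, were called lower. In the cohort-wide fit described below Tcstv1 was not called (adjusted p = 0.21).

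Transcripts of neighbouring cells were uneven between embryos. The 16 cumulus and granulosa markers summed to 769.8 CPM in replicate 5 of 0 h, to 1321 CPM in replicate 5 of 12 h and to between 29.9 and 307 CPM in the other 8 embryos, with Amh at 0 in all 10. Cyp19a1 was present in all 10, at 24.1 to 108.4 CPM at 0 h and 102.9 to 191 CPM at 12 h. It was called higher and made most of the sum in several of those 8 embryos. The blood and oviduct list, led by the globins Hba-a1 and Hbb-bs, summed to 2169 CPM in replicate 1 of 0 h. Replicate 2 of 0 h had 396 CPM, replicate 5 of 12 h had 257 CPM, and the rest lay between 9.56 and 82 CPM. In replicate 5 of 12 h Hba-a1 and Hbb-bs were at 0, and the keratins Krt18 (185 CPM) and Krt8 (62.5 CPM) made most of the sum. Replicate 5 of 12 h also held the most genes with a count, 19439 against 13989 to 16267 in the other 12 h embryos. Counts that lead a paragraph were therefore also made without these libraries.

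A large share of genes differed between the groups, in about equal numbers each way. Of 8232 genes tested, 1615 (19.6%) were higher at 12 h and 1595 (19.4%) were lower, 39% in all, and counts within gene lists are read against these 2 shares. Changes of at least 2-fold were called for 982 genes (11.9%) upward and 1141 (13.9%) downward. For 1053 genes (12.8%) every 12 h embryo lay above every 0 h embryo, and for 1137 (13.8%) every 12 h embryo lay below. Without the TMM factor the median gene moved from -0.02 to -0.29 on the log2 scale, and the split became 1011 higher and 2254 lower, so the balance between rises and falls rests on the scaling. Leaving out 0 h replicates 1 and 5 gave 1149 and 1135 calls, and leaving out 12 h replicate 5 as well gave 1239 and 1207. A fit of the 81 embryo libraries of 0 h to 36 h, called the cohort-wide dispersion here, gave 762 and 861 calls. It differed in its filter (18577 genes tested), TMM factors, adjustment and dispersion together. A call lost in it is therefore not assigned to any 1 of these. Its libraries included replicate 5 of 10 h, which stood far from the other embryos of its hour (Btg4 at 26.3 CPM against 11703 or more). The effect of that library on the lost calls was not tested. In 12 h embryos fewer genes carried more of the RNA: the 100 most abundant genes took 32.1% to 40.9% of the gene counts there and 28.3% to 32.0% at 0 h.

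**Figure D1:**
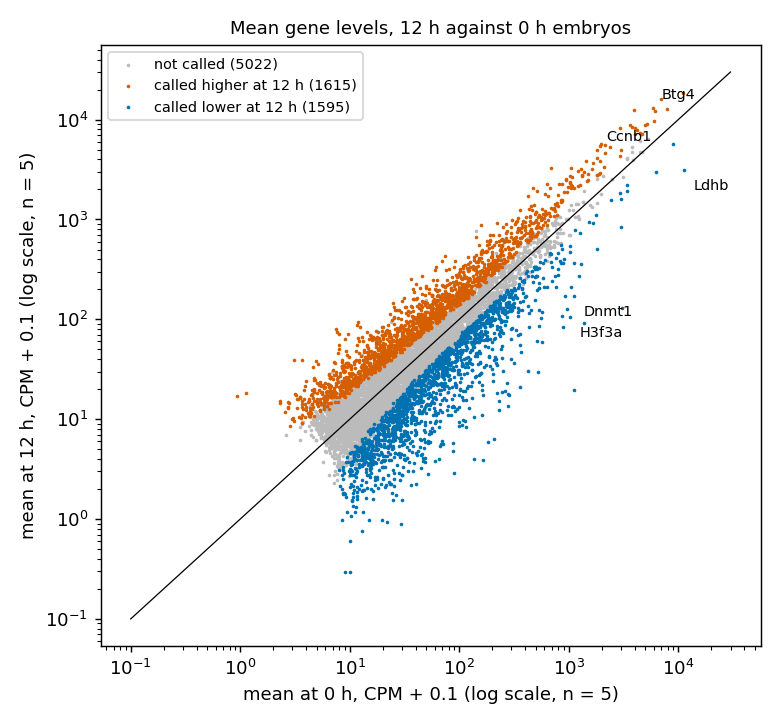
Mean level of each of the 8232 genes tested at 0 h (horizontal, CPM, log scale) against 12 h (vertical, CPM, log scale); orange points are the 1615 genes called higher, blue points the 1595 called lower and grey points the rest, and the line marks equal levels. Abundant transcripts lie on both sides of the line, among them Btg4 and Ccnb1 above it and Ldhb, H3f3a and Dnmt1 below it.

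The largest gains in CPM among genes whose groups did not overlap included Tcl1 and Oog3. Tcl1, an activator of the kinase Akt, held 6708, 5860.3, 7215, 7059 and 7659 CPM in the 0 h embryos and 17976, 13362, 20738, 17275 and 11591 CPM in the 12 h embryos. Oog3, an oocyte gene of the PRAME-like family, held 2259, 3108, 4027, 4897 and 5622 CPM and then 15169, 10152, 16986, 11869.5 and 7639 CPM. For both genes the lowest 12 h embryo, replicate 5, was still above all 0 h embryos, and the log2 changes were 1.23 ± 0.20 (SE) (adjusted p = 1.4e-04) and 1.63 ± 0.27 (SE) (adjusted p = 1.3e-04). The ubiquitin ligase gene Rfpl4 went from 3628 ± 629 to 8764 ± 2007 CPM, the histone-binding gene Rbbp7 from 3745 ± 689 to 8505 ± 1419 CPM, the histone-mark reader Spin1 from 4064 ± 516 to 8193 ± 1233 CPM, Ccdc69 from 1941 ± 286 to 5398 ± 1563 CPM and the noncoding transcript E330021D16Rik from 4206 ± 846 to 7855 ± 1735 CPM. Zbed3 reached 12897 ± 3843 CPM from 7903 ± 1547 CPM, a gain whose call was lost without the TMM factor (adjusted p = 0.13), without 12 h replicate 4 (adjusted p = 0.06) and without 0 h replicates 1 and 5 (adjusted p = 0.07). The cohort-wide dispersion left the calls of Tcl1, Rfpl4, E330021D16Rik and Zbed3 (adjusted p from 0.079 to 0.43) unmade.

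Among the losses, Ldhb, which encodes the lactate dehydrogenase subunit that favours pyruvate, was the largest in CPM. It held 9148, 9757, 12827, 13218 and 11924 CPM at 0 h and 3014, 6734, 2098, 2251 and 1488 CPM at 12 h. Replicate 2 of 12 h kept the highest level among the 12 h embryos by a wide margin and was still below all 0 h embryos (log2 change -1.87 ± 0.32 (SE), adjusted p = 2.1e-04). Gm5514, whose name gives no function, went from 2342, 2576, 3439.9, 3494 and 3256 CPM to 796, 1859, 561, 625 and 408 CPM, with the same embryo highest. Elobl, an elongin B-like gene, lost nearly all of its level, from 2035, 3049, 3146, 3537 and 3679.7 CPM to 73.02, 449.6, 56.6, 35.3 and 39.2 CPM (log2 change -4.59 ± 0.80 (SE), adjusted p = 0.0017). Again replicate 2 of 12 h stood highest. E330017A01Rik, of unknown function, made a log2 change of -5.84 ± 0.36 (SE) (adjusted p = 5.0e-09), from 699, 772, 939.6, 1742 and 1448 CPM to 22.5, 21.2, 33.8, 9.54 and 11.5 CPM. The membrane to actin linker radixin, Rdx, went from 6294 ± 452 to 2961 ± 400.1 CPM, the transcriptional coactivator gene Sub1 from 3421 ± 768 to 1933 ± 483 CPM, and the ubiquitin-conjugating enzyme gene Ube2t from 1376 ± 301 to 91.6 ± 31.0 CPM. With the cohort-wide dispersion Rdx and Sub1 (adjusted p from 0.17 to 0.18) were not called.

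Short 3′ UTR motifs were compared with these movements. In maturing oocytes the protein CPEB binds a U-rich element, the cytoplasmic polyadenylation element, near the end of the 3′ UTR and recruits the machinery that lengthens the tail. The sense strand of 1 GENCODE M21 transcript per gene (GRCm38, the assembly of mm10) was searched for TTTTAT or TTTTAAT, counted once where they overlap, within the last 100 bases of the 3′ UTR. Either was present in 27.6% of the 1289 genes called higher that have such a transcript, in 18.4% of the 1384 called lower, in 22.9% of the 4262 not called and in 22.9% of all 6935. The AU-rich element TATTTAT, anywhere in the 3′ UTR, was in 29.8% of the higher and 28.1% of the lower genes, and the Pumilio motif TGTANATA in 29.2% and 26.3%, against 31.2% and 28.7% of all. The element occurred on both sides, and 4 genes called higher and 3 called lower are shown with the element in capitals because they recur below. The windows lie in the 3′ UTR of the last exon, they are 30 bases long, and the deposited data do not show which 3′ ends the embryos used.
Btg4: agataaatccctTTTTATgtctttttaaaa (higher at 12 h; chr9:51119797-51119826, plus strand)
Cnot7: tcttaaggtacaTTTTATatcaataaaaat (higher; chr8:40493038-40493067, minus strand)
Asf1b: tatattaaaaggTTTTATattaaaagtttt (higher; chr8:83970135-83970164, plus strand)
Nlrp4f: tgctgttttgtgTTTTATattaaagaatag (higher; chr13:65177128-65177157, minus strand)
Dnmt1: gacttgatgtagTTTTATatgttgtaatat (lower at 12 h; chr9:20907239-20907268, minus strand)
Aurkb: tgaagaacaacaTTTTATaataaagtctta (lower; chr11:69051616-69051645, plus strand)
Ube2t: aaggatagtttgTTTTATttatcttgtaca (lower; chr1:134974081-134974110, plus strand)

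The genes that hold and release the meiotic arrest parted ways. Mos, the kinase that keeps the egg in metaphase, held 932, 839, 917, 729 and 909 CPM at 0 h and 91.5, 22.2, 55.1, 243 and 133.5 CPM at 12 h (log2 change -2.99 ± 0.46 (SE), adjusted p = 2.5e-04). All 0 h embryos were within a narrow band and the 12 h embryos were spread widely below it. Fbxo43, the inhibitor of the anaphase-promoting complex (APC/C) that enforces the arrest, was at 114.9 ± 14.1 CPM and 128.1 ± 10.8 CPM and was not called (adjusted p = 0.5). Ccnb1, the cyclin that the APC/C destroys as protein at meiotic exit, rose from 1349.8, 1384, 1946, 2198 and 2269.7 CPM to 5454, 4108, 5679, 5952 and 3476 CPM (log2 change 1.43 ± 0.22 (SE), adjusted p = 7.2e-05), and no 12 h embryo overlapped a 0 h embryo. Ube2c, the conjugating enzyme that works with the APC/C, fell from 266, 300.0, 291, 272 and 275 CPM to 21.2, 29.9, 5.88, 15.3 and 17.5 CPM (log2 change -3.97 ± 0.28 (SE), adjusted p = 2.1e-08). The catalytic RING subunit Anapc11 fell from 210.5 ± 46.97 to 42.2 ± 24.5 CPM, whereas Anapc10, the subunit that helps to bind substrates, rose from 163 ± 26.7 to 302 ± 78.6 CPM. Cdc20, an activator of the complex, stood at 127.99 ± 10.99 CPM and 123.2 ± 26.4 CPM (adjusted p = 0.82). Wee2, the oocyte kinase that inhibits Cdk1, averaged 562 ± 45.8 CPM at 0 h and 822 ± 185 CPM at 12 h (adjusted p = 0.023), a call that did not survive the cohort-wide dispersion, scaling by library size, an absent filter or the loss of 0 h replicates 2 or 3, 12 h replicates 3 or 4, or 0 h replicates 1 and 5 together (adjusted p from 0.051 to 0.46). Of the 28 genes tested in the list of meiotic exit and egg activation, 3 (10.7%) were called higher and 13 (46.4%) lower, where 19.6% and 19.4% of all genes were, and the median change was -0.50. The cohort-wide dispersion also removed the call of Anapc10 (adjusted p = 0.08).

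Calm2, a gene for the calcium sensor calmodulin, which reads the calcium waves of fertilization, fell from 219, 305, 654, 821 and 595 CPM to 27.0, 45.3, 10.3, 18.1 and 48.5 CPM (log2 change -4.08 ± 0.45 (SE), adjusted p = 1.5e-05). All 12 h embryos lay below all 0 h embryos.

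Genes that build and check the first mitotic spindle also moved in both directions. Of 42 tested genes of the spindle, kinetochore and chromosomal passengers, 9 were higher and 10 lower, close to the background shares. Dsn1, of the kinetochore's Mis12 complex, rose from 458, 357, 512, 566 and 516 CPM to 1365, 1207, 1563, 1771 and 1067 CPM (log2 change 1.53 ± 0.19 (SE), adjusted p = 1.1e-05). Mad2l1, the checkpoint protein that holds back anaphase, rose from 1224 ± 369 to 3055 ± 833 CPM, and its partner in the checkpoint complex Bub3 fell from 341 ± 54.4 to 119.2 ± 53.4 CPM. The groups did not overlap for any of the 3. Aurkb, the catalytic subunit of the chromosomal passenger complex, fell from 21.0 ± 4.80 to 2.01 ± 1.07 CPM (log2 change -3.57 ± 0.50 (SE), adjusted p = 2.9e-05). The midzone bundler Prc1 went from 969 ± 126.3 to 1884 ± 306 CPM and the kinesin Kif4 from 239 ± 22.2 to 98.1 ± 30.8 CPM. Among cyclins and their kinases 4 of 16 (25%) were higher, near the 19.6% of all genes, and 1 (6.25%) was lower, where 19.4% of all genes were. Those higher included Cks1b (684 ± 80.2 to 1292 ± 309 CPM) and Cks2 (738 ± 132.1 to 1274 ± 275 CPM), small proteins that bind cyclin-dependent kinases. The whole-cohort dispersion gave no call for Prc1 and Cks2 (adjusted p from 0.079 to 0.13).

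**Figure D2:**
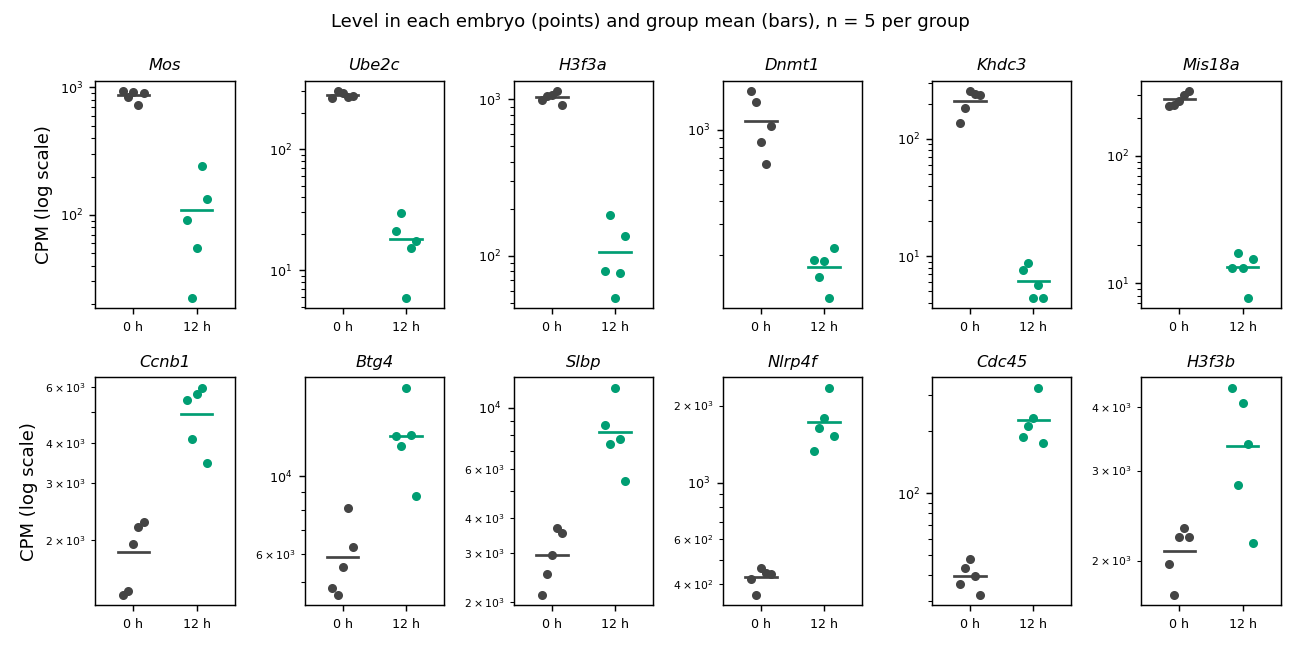
Level in every embryo (points; CPM, log scale) of 12 genes at 0 h (left of each panel, 5 embryos) and 12 h (right, 5 embryos), with bars at the group means. The 12 h embryos lie wholly below the 0 h embryos for Mos, Ube2c, H3f3a, Dnmt1, Khdc3 and Mis18a, wholly above them for Ccnb1, Btg4, Slbp, Nlrp4f and Cdc45, and overlap with them for H3f3b.

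Btg4, the adaptor that brings the deadenylase to maternal messages, was among the largest gains in CPM and held 4789, 4590.3, 5512, 8127 and 6263 CPM at 0 h and 13007, 12147, 17871, 13127 and 8765 CPM at 12 h (log2 change 1.15 ± 0.22 (SE), adjusted p = 6.2e-04). Cnot7, a catalytic deadenylase subunit of the CCR4-NOT complex, rose with it from 694, 708, 1120.2, 1643 and 1159 CPM to 3176, 1975, 3255, 2486 and 2326 CPM (log2 change 1.31 ± 0.24 (SE), adjusted p = 3.7e-04). Cnot6l, the other kind of deadenylase subunit, went the opposite way, from 787, 689, 719, 704.99 and 652 CPM to 325, 186, 467, 339.5 and 349 CPM (log2 change -1.09 ± 0.20 (SE), adjusted p = 4.5e-04). The groups were apart in all 3 cases. The scaffold subunit Cnot2 rose from 89.7 ± 9.69 to 221 ± 13.1 CPM, and of the 10 Cnot genes tested 2 rose and 2 fell, near the shares of all genes (19.6% and 19.4%). With the cohort-wide dispersion Btg4 (adjusted p = 0.1) was not called.

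The genes of tail lengthening named here, Cpeb1, Papola and Tent5c, fell. Cpeb1, which binds the element printed above, went from 143, 146, 125.2, 129.2 and 166 CPM to 60.9, 61.7, 71.3, 99.2 and 66.9 CPM (log2 change -0.98 ± 0.19 (SE), adjusted p = 6.7e-04). The poly(A) polymerase gene Papola fell from 229 ± 21.6 to 71.4 ± 11.1 CPM and Tent5c, another polymerase of this kind, from 513 ± 71.5 to 197 ± 75.8 CPM. Outside that group, Pabpn1l, the egg's nuclear-type poly(A)-binding protein, fell from 534 ± 138.96 to 205 ± 83.9 CPM. Among the proteins that keep oocyte messages, Zar1 fell from 966, 1004, 1156, 1095 and 894 CPM to 531, 435, 357, 547 and 475 CPM (adjusted p = 8.0e-05) and the low transcript of Ybx2 from 26.0 ± 3.27 to 4.47 ± 2.68 CPM (adjusted p = 3.6e-04), while Dazl, which promotes translation in germ cells, rose from 1494 ± 122.7 to 2872 ± 869.6 CPM. Lsm4, of the complexes that splice and decap RNA, fell to 2.81 ± 2.57 CPM from 89.1 ± 28.5 CPM. Of the 62 genes of this list that were tested, 12 (19.4%) were higher, near the 19.6% of all genes. Another 20 (32.3%) were lower, where 19.4% of all genes were (median -0.07, against -0.02 for all genes). Zfp36l2, a regulator of AU-rich messages, did not pass the filter, with 17 counts at 0 h and 12 at 12 h. Calls of Cpeb1, Pabpn1l, Zar1 and Dazl were not made in the cohort-wide fit (adjusted p from 0.092 to 0.2).

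Transcripts that the growing oocyte lays down for its coat and cortex mostly fell. Of the 15 markers of oocyte and zygote identity 2 (13.3%) were called higher and 9 (60%) lower (median -0.91). In the list of egg coat and cortical granule genes 8 of 13 fell and 0 rose, where 19.4% of all genes fell, and the other 5 were not called. Zp2, the zona pellucida protein that the egg cleaves after fertilization, held 519, 431, 561, 1358 and 1957 CPM at 0 h and 127.6, 178, 99.2, 144 and 82.2 CPM at 12 h (log2 change -2.94 ± 0.41 (SE), adjusted p = 9.3e-05). The 0 h embryos differed widely among themselves, with replicates 4 and 5 highest, and all lay above the 12 h embryos. Zp3, another zona protein, fell from 530.3 ± 140.2 to 125.1 ± 56.8 CPM and the secreted oocyte protein gene Oosp2 from 344 ± 36.9 to 107.8 ± 36.9 CPM. Plat, tissue plasminogen activator, fell from 1463, 1584, 1905, 1929.5 and 2150.2 CPM to 450.3, 211, 247, 1161 and 463 CPM, with replicate 4 of 12 h close to the 0 h embryos.

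The subcortical maternal complex, an assembly under the membrane of egg and early embryo without which cleavage stalls, had members that fell, while 7 related Nlrp genes rose. Nlrp5 fell from 1023, 1001, 1119.6, 1431 and 1832 CPM to 399.8, 514, 228, 259 and 391 CPM, Ooep from 935, 1029, 1277, 1594 and 1334 CPM to 283, 423, 108.1, 196 and 337 CPM, and Khdc3 from 135.6, 184, 254, 240.0 and 235 CPM to 7.66, 8.68, 4.41, 5.72 and 4.39 CPM. No embryo of 12 h reached the 0 h range in any of them, and the log2 changes were -1.84 ± 0.24 (SE), -2.19 ± 0.29 (SE) and -5.11 ± 0.28 (SE) (adjusted p = 1.7e-05, 1.6e-05 and 9.4e-10). Gm20509, a gene model with nearly the same counts as Khdc3 in every embryo, had a log2 change of -5.02 ± 0.28 (SE), and 5 and 7 of their 10 deposited values were not whole numbers, so reads may be shared between them. Nlrp4f, another member of the same protein family, rose from 419.7, 365, 464, 443 and 440.4 CPM to 1326, 1637, 1783, 2347 and 1524 CPM (log2 change 2.01 ± 0.19 (SE), adjusted p = 5.9e-07). Nlrp4b rose from 498 ± 125.4 to 1193 ± 186 CPM and Nlrp9b from 277 ± 54.4 to 527 ± 63.97 CPM. Of the 9 Nlrp4 and Nlrp9 genes tested 7 rose and 0 fell, where 19.6% and 19.4% of all genes did. Their median change was 0.95, and near copies among them can share reads. In the whole list of subcortical complex and maternal effect genes, 28 were tested. Of these 7 (25%) were higher and 11 (39.3%) lower, with a median change of -0.22. Dppa3, which shields maternal DNA methylation, stood at 4455 ± 1546 CPM and 6069 ± 1542 CPM and was not called (adjusted p = 0.15), although it was called without 0 h replicate 4 (adjusted p = 0.03) or without 12 h replicate 5 (adjusted p = 0.042). The anti-apoptotic gene Bcl2l10 held 6040.3 ± 791 CPM and 9657 ± 2300.2 CPM (adjusted p = 0.014), a call lost without 0 h replicates 1 and 5. Not called with the cohort-wide dispersion were Nlrp4b, Nlrp9b and Bcl2l10 (adjusted p from 0.11 to 0.38).

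Among chromatin genes, a pair with 1 product differed in direction. H3f3a and H3f3b both encode histone H3.3, which replaces protamine and fills chromatin outside replication. H3f3a fell from 991, 1058, 1065, 1125 and 924 CPM to 80.2, 181, 53.7, 77.3 and 134.1 CPM (log2 change -3.29 ± 0.27 (SE), adjusted p = 1.6e-07). H3f3b held 1968, 1716, 2226, 2321 and 2222 CPM and 4357, 2811, 4071, 3376 and 2169 CPM (log2 change 0.68 ± 0.20 (SE), adjusted p = 0.013), with 12 h replicate 5 inside the 0 h range. The first difference was large in every embryo, and the second call was lost with the cohort-wide dispersion (adjusted p = 0.11), without the TMM factor (adjusted p = 0.054) and without 0 h replicates 1 and 5 (adjusted p = 0.067). Npm2, the nucleoplasmin that decondenses the sperm, fell from 901, 796, 596, 584 and 663 CPM to 280.4, 254, 189.7, 204 and 288 CPM (adjusted p = 9.6e-06). Of the histone chaperones, Asf1b rose from 458 ± 89.8 to 1238 ± 246 CPM and Asf1a from 342 ± 61.9 to 560.1 ± 108.5 CPM, whereas Nasp, which guards free H3 and H4, fell from 370.4 ± 31.9 to 123.5 ± 25.1 CPM. Hira, which deposits H3.3, stayed below the filter with 12 and 11 counts. Slbp, which binds the stem-loop of replication-dependent histone messages, rose from 2123, 2522, 2943, 3685 and 3527 CPM to 8655, 7391, 11824, 7729 and 5441 CPM (log2 change 1.47 ± 0.23 (SE), adjusted p = 8.2e-05). Hist1h2bc fell from 230.3 ± 89.4 to 12.4 ± 5.91 CPM, a value that near-identical histone genes make uncertain. The call of Asf1a was lost with the cohort-wide dispersion (adjusted p = 0.072) and without 0 h replicates 1 and 5 (adjusted p = 0.071).

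Of 11 tested genes that write or erase DNA methylation, 5 (45.5%) fell, where 19.4% of all genes did, and 0 rose (6 not called). Dnmt1, which copies methylation at replication and has an oocyte-specific first exon, fell from 1639, 1438, 859.8, 643 and 1058 CPM to 187, 151, 185, 115.4 and 219 CPM (log2 change -2.71 ± 0.26 (SE), adjusted p = 6.4e-07). Uhrf1, its partner at hemimethylated sites, fell from 245, 289, 256, 217 and 241 CPM to values between 74.99 and 209.8 CPM (adjusted p = 0.0032). Tet3, the oxidase that acts in the zygote, fell from 896, 1100.4, 849, 545 and 769.8 CPM to 409.7, 259, 439, 427 and 394 CPM (adjusted p = 4.1e-04). For each the groups did not overlap, by the narrowest margin for Uhrf1 in 12 h replicate 4. Dnmt3l, the cofactor of methylation in the oocyte, fell from 85.2 ± 25.8 to 15.9 ± 9.97 CPM. Among 37 histone modifiers 2 (5.41%) rose and 10 (27.0%) fell. The risers were Eed (193 ± 17.4 to 424 ± 84.4 CPM) and Rnf2 (221 ± 33.6 to 432 ± 97.3 CPM), of Polycomb complexes 2 and 1. The fallers included the acetyltransferase Crebbp (208 ± 20.2 to 64.1 ± 20.8 CPM) and the H3K27 demethylase Kdm6b (72.4 ± 24.1 to 19.8 ± 6.71 CPM). Kdm1b, the demethylase needed for maternal imprints, was at 178 ± 11.1 and 227 ± 62.4 CPM (adjusted p = 0.15). The cohort-wide dispersion did not give the calls of Uhrf1 and Rnf2 (adjusted p from 0.079 to 0.17).

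Of 17 centromere genes 5 (29.4%) rose and 5 (29.4%) fell, where 19.6% and 19.4% of all genes did. Mis18a, which licenses new CENP-A at centromeres, fell from 246, 253, 272, 299 and 322 CPM to 13.1, 17.4, 13.2, 7.63 and 15.6 CPM (log2 change -4.35 ± 0.22 (SE), adjusted p = 8.2e-10). Of the constitutive centromere network, Cenpk fell from 115.6 ± 24.5 to 36.5 ± 11.5 CPM and Cenpm from 33.3 ± 7.84 to 9.53 ± 4.08 CPM, while Cenpn, which reads CENP-A, rose from 866 ± 189 to 2289 ± 484 CPM, Cenpo from 44.9 ± 11.6 to 138.8 ± 31.5 CPM and Cenpx from 45.4 ± 6.77 to 153 ± 40.5 CPM. No embryo of one group entered the range of the other for any of these 6 genes.

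Pronuclear DNA is copied in the 1-cell embryo, and of 48 replication genes tested 17 (35.4%) were higher at 12 h and 10 (20.8%) lower (median 0.13). Among all genes 19.6% were higher, and the share lower in the list was near the 19.4% of all genes. Cdc45, part of the active helicase, rose from 36.1, 43.2, 47.97, 39.5 and 32.2 CPM to 188, 213, 232, 325 and 176 CPM (log2 change 2.50 ± 0.21 (SE), adjusted p = 2.1e-07). Of the 6 genes of the origin recognition complex 5 were higher, Orc1 among them (70.6, 58.2, 59.8, 59.6 and 77.9 CPM and 114.04, 96.5, 127.2, 151 and 81.7 CPM, adjusted p = 0.0056). Of the 6 Mcm genes, which make the helicase ring, 0 were higher and 1 was lower, Mcm2 (149, 119.7, 122.7, 113.04 and 116.9 CPM and 64.9, 57.9, 46.3, 102.1 and 57.02 CPM, adjusted p = 0.0028). Mcm7 averaged 33.3 ± 10.4 CPM and 48.6 ± 19.7 CPM (adjusted p = 0.15). Of the licensing factors, Cdt1 fell from 45.2 ± 10.6 to 19.2 ± 8.81 CPM, its inhibitor geminin, Gmnn, rose from 366 ± 53.2 to 645 ± 192 CPM, and Cdc6 was not called at 16.9 ± 7.40 CPM and 18.1 ± 7.70 CPM (adjusted p = 0.81). The primase gene Prim2 rose from 61.5 ± 1.12 to 146 ± 24.4 CPM and the polymerase epsilon subunit Pole3 from 167 ± 29.1 to 336 ± 65.4 CPM. Clspn, which signals stalled forks, fell from 199.6 ± 37.6 to 88.4 ± 18.4 CPM, and Chek1, the kinase it activates, rose from 1308 ± 115.002 to 2724 ± 501 CPM. In nucleotide synthesis 5 of 24 (20.8%) were higher, near the 19.6% of all genes, with the ribonucleotide reductase subunit Rrm2 at 98.5 ± 34.9 and 196 ± 51.98 CPM, and 1 lower, Dpys, an enzyme of pyrimidine breakdown, from 114.5, 101.4, 118.4, 118.1 and 110.1 CPM to 10.4, 12.5, 9.56, 7.63 and 7.40 CPM. Of the genes for sister chromatid cohesion, Esco2 (572 ± 69.8 to 1263 ± 277 CPM) and Cdca5 (85.2 ± 8.98 to 267 ± 100.7 CPM) rose, while the cohesin subunit Smc3 fell from 538 ± 117.7 to 208 ± 58.7 CPM. The call of Mcm2 was also lost without 0 h replicates 1 and 5 and 12 h replicate 5 (adjusted p = 0.052), and the whole-cohort dispersion gave none for Orc1, Mcm2, Cdt1, Gmnn, Prim2, Pole3, Chek1 and Smc3 (adjusted p from 0.085 to 0.17).

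Of 22 tested regulators of the coming genome activation 9 (40.9%) were called higher, where 19.6% of all genes were, and 4 (18.2%) lower, near the 19.4% of all genes, with a median change of 0.58. Nfyc, a subunit of the CCAAT-binding factor NF-Y, rose from 26.1, 22.4, 47.4, 47.9 and 24.6 CPM to 92.9, 144, 104.4, 151 and 115.1 CPM (log2 change 1.83 ± 0.26 (SE), adjusted p = 3.5e-05). Its partner subunit Nfya was at 70.2 ± 21.1 CPM and 72.9 ± 39.0 CPM and was not called (adjusted p = 0.87). The Krüppel-like factor gene Klf17 rose from 347, 431, 413, 369.8 and 445 CPM to 620.2, 799.8, 659, 969 and 869 CPM (adjusted p = 3.5e-04). Tbpl2, the oocyte's variant of the TATA-binding protein, rose from 17.9 ± 5.01 to 48.7 ± 13.99 CPM. The homeobox gene Obox1 held 5172 ± 1032 and 9093 ± 2444 CPM (adjusted p = 0.0079), with overlapping groups, and 4 of the 5 Obox genes tested were higher, although all 10 of its deposited values were fractions, as for genes that share reads with near copies. The call of Obox1 was lost without 0 h replicates 1 and 5 (adjusted p = 0.062). Dppa2 averaged 18.8 ± 8.68 CPM and 37.5 ± 16.5 CPM, a call at adjusted p = 0.044 that was lost in 12 of the 17 alternative fits, and Dppa4 was below the filter with 18 and 14 counts. Yap1, a coactivator of TEAD factors, held 101.7 ± 19.98 CPM and 99.8 ± 13.1 CPM, and the RNA polymerase II subunit gene Polr2a 6.81 ± 4.02 CPM and 12.2 ± 5.26 CPM, and neither was called (adjusted p = 0.93 and 0.23). The cohort-wide dispersion left no call for Klf17, Tbpl2, Obox1 and Dppa2 (adjusted p from 0.077 to 0.29).

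Zinc-finger genes of the Zfp series form the largest list tested. Of 142 Zfp genes tested 66 (46.5%) were higher and 11 (7.75%) lower, and their median change was 0.76, where 19.6% and 19.4% of all genes were called and the median was -0.02. Zfp932 rose from 11.1, 9.14, 4.98, 12.3 and 21.2 CPM to 111.3, 80.1, 108.1, 49.6 and 116.5 CPM (log2 change 3.01 ± 0.34 (SE), adjusted p = 4.1e-06). Zfp944 rose from 30.2 ± 8.88 to 154 ± 38.5 CPM and the pseudogene Zfp813-ps from 45.8 ± 19.4 to 271 ± 79.5 CPM. Many genes of this family, whose proteins with a KRAB domain silence retroelements, are close copies, and between 5 and 7 of the 10 deposited values of these 3 genes were not whole. Zfp281, a factor of pluripotent cells, fell from 38.8 ± 15.2 to 10.4 ± 6.49 CPM, with no call under the cohort-wide dispersion (adjusted p = 0.054). The median of the list stayed between 0.48 and 0.90 over all fits.

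The genes with the largest log2 gains were mostly low at 0 h. Lgmn, a lysosomal protease, averaged 3.01 ± 2.61 CPM at 0 h and 38.8 ± 47.4 CPM at 12 h, but 12 h replicate 5, the embryo with the most cumulus transcripts, held 122.8 CPM and the others between 11.4 and 28.8 CPM. Fastkd2, a mitochondrial RNA-binding protein, rose from 0.556, 4.99, 2.49, 13.4 and 16.1 CPM to 59.5, 106.1, 87.5, 68.7 and 54.3 CPM. The models Gm10033, Gm4924 and Gm10509, named without a function, rose from 7.37 ± 3.31, 3.60 ± 2.96 and 9.49 ± 3.85 CPM to 79.02 ± 28.1, 39.1 ± 17.5 and 70.8 ± 13.6 CPM.

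**Figure D3:**
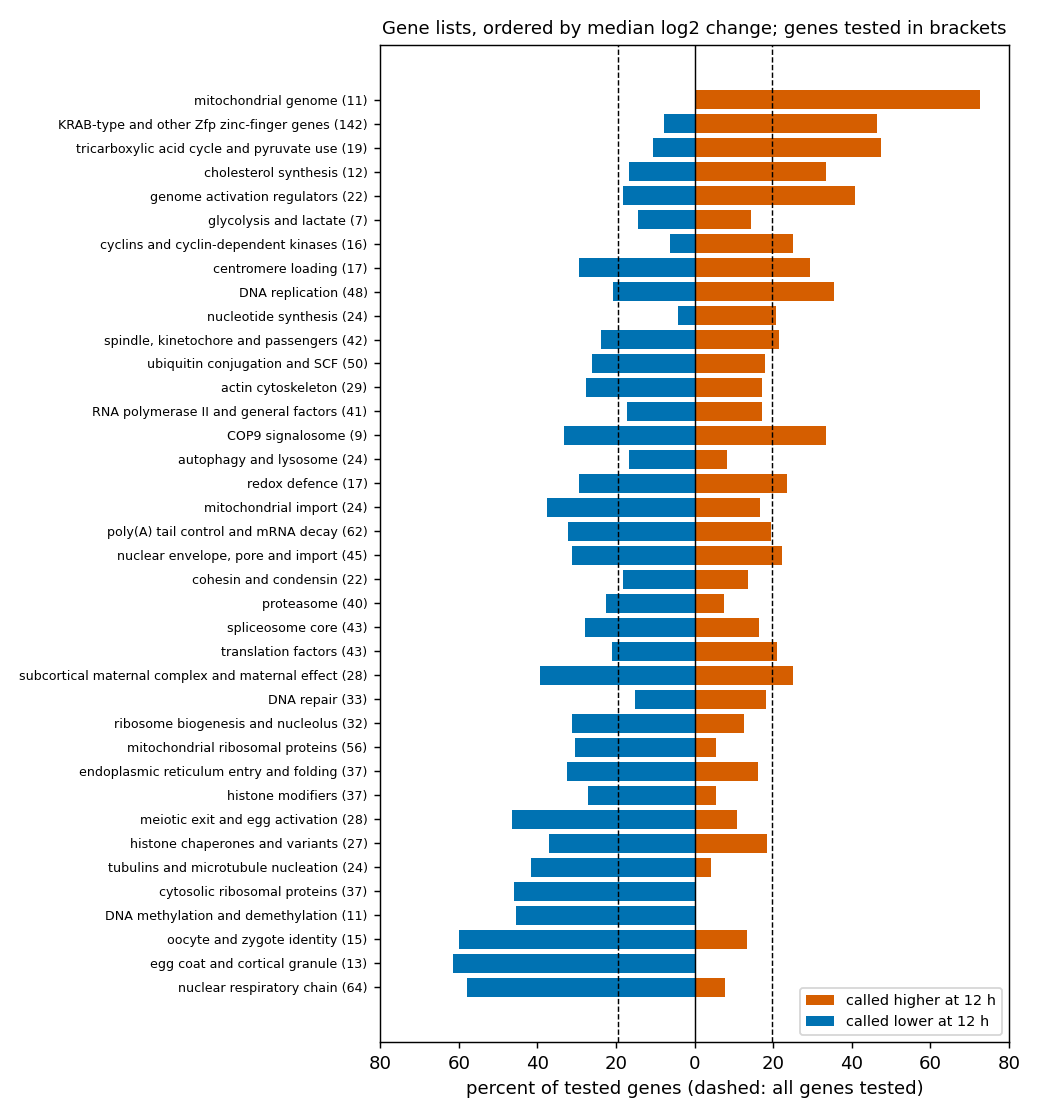
Percent of tested genes called higher (orange, to the right) and lower (blue, to the left) at 12 h in the 38 gene lists with at least 5 genes tested, with the number tested beside each name; dashed lines mark the 19.6% and 19.4% of all 8232 genes. The mitochondrial genome, the tricarboxylic acid cycle and Zfp genes reach furthest right, and the egg coat, oocyte and zygote identity and the nuclear respiratory chain furthest left.

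Mitochondrial transcripts divided by genome. Of the 11 mitochondrial-genome genes tested 8 (72.7%) rose, 0 fell and 3 were not called (median 0.92). Of 64 nuclear genes for the respiratory chain 5 (7.81%) rose and 37 (57.8%) fell (median -1.42), where 19.6% and 19.4% of all genes did. mt-Cytb, of complex III, held 1271, 1657, 1748, 2466 and 2641 CPM at 0 h and 4734, 3557, 6043, 8415 and 5599.9 CPM at 12 h (log2 change 1.54 ± 0.25 (SE), adjusted p = 1.3e-04). mt-Nd5 rose from 329 ± 80.5 to 949.7 ± 356 CPM. Ndufa5, a nuclear subunit of complex I, fell from 136.2, 103.9, 134.6, 158 and 142 CPM to 5.41, 4.82, 0, 0.954 and 8.50 CPM (log2 change -4.84 ± 0.42 (SE), adjusted p = 2.4e-07), Atp5mpl, a small protein of the ATP synthase, from 285 ± 57.4 to 17.4 ± 6.26 CPM, and Cox6c from 317 ± 33.6 to 36.5 ± 11.98 CPM. Falls were spread over 19 of 27 subunits of complex I, 5 of 7 of complex III, 7 of 12 of complex IV and 4 of 12 of the ATP synthase. Sdha, the flavoprotein of complex II, rose from 58.9 ± 11.98 to 146 ± 44.6 CPM. Of 19 genes of the tricarboxylic acid cycle and pyruvate use 9 (47.4%) rose and 2 (10.5%) fell, with Sucla2 going from 29.5, 44.0, 40.5, 69.1 and 44.9 CPM to 139.7, 178, 206, 229.9 and 153 CPM (adjusted p = 6.1e-06), while Ogdh, of the oxoglutarate dehydrogenase step, fell from 38.8 ± 11.2 to 9.98 ± 4.22 CPM. Mitochondrial ribosomal proteins followed the respiratory chain, with 3 of 56 (5.36%) higher and 17 (30.4%) lower, among them Mrps31 (106.9 ± 23.5 to 8.70 ± 2.99 CPM). Total RNA of the mitochondrial genome was 0.577% to 0.894% of gene counts at 0 h and 0.974% to 1.88% at 12 h.

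Of the 37 cytosolic ribosomal protein genes tested 0 rose and 17 (45.9%) fell, where 19.4% of all genes did (median -0.84), Rplp1 from 112.3, 107.2, 103.4, 85.2 and 94.005 CPM to 7.66, 19.3, 2.21, 2.86 and 10.4 CPM (log2 change -3.55 ± 0.38 (SE), adjusted p = 2.4e-06) and Rpl41 from 215 ± 57.6 to 36.5 ± 10.9 CPM. Of the 88 genes of the list 86 were in the count table, those not tested among them did not pass the filter on low counts, and pseudogene copies can take some of their reads. Of 43 translation factors 9 were higher and 9 lower (20.9% each), near the shares of all genes. Eif4e, which binds the message cap, rose from 120.1, 127.2, 189, 214 and 246 CPM to 469, 625, 559, 670.5 and 446 CPM (log2 change 1.63 ± 0.22 (SE), adjusted p = 1.9e-05), Eif2s1, the alpha subunit of eIF2, from 37.9 ± 12.5 to 203 ± 33.8 CPM, and Eif2b1, of its exchange factor, from 1387 ± 323 to 3009 ± 708 CPM. Eif1b fell from 430.3 ± 53.8 to 82.9 ± 25.1 CPM and Eif3k from 155 ± 20.7 to 27.9 ± 14.6 CPM. Of 41 genes of RNA polymerase II and its general factors 7 rose and 7 fell (17.1% each), no more than among all genes. Polr2l, of the polymerase, fell from 81.7, 52.4, 64.8, 71.8 and 72.8 CPM to 5.41, 7.72, 4.41, 5.72 and 4.66 CPM (adjusted p = 6.0e-08) and Polr2d from 894 ± 247 to 369.9 ± 92.4 CPM, and the TFIID subunit gene Taf13 rose (200.1 ± 22.8 to 471 ± 158 CPM). In the spliceosome 7 of 43 (16.3%) rose, no more than among all genes, with the splicing regulator Srsf3 at 134.96 ± 23.7 and then 396 ± 73.4 CPM. Another 12 (27.9%) fell, with the Sm-like proteins Lsm5 (67.2 ± 20.6 to 12.4 ± 2.91 CPM) and Lsm6 (111.9 ± 20.5 to 19.2 ± 11.3 CPM). The cohort-wide dispersion ended the calls of Eif2b1 and Taf13 (adjusted p from 0.069 to 0.07).

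The proteasome degrades ubiquitin-marked proteins. Of 13 tested genes of its 20S core 6 fell and 0 rose, and of 20 genes of the 19S cap 3 rose and 2 fell, no more than the 19.6% and 19.4% of all genes. Psmb2 fell from 329, 365, 429, 541 and 482 CPM to 115.4, 224, 74.99, 74.4 and 94.9 CPM (log2 change -1.89 ± 0.27 (SE), adjusted p = 3.9e-05) and Psma5 from 115.2 ± 32.2 to 15.5 ± 13.3 CPM, and the core's assembly factor Pomp from 130.2 ± 39.3 to 49.7 ± 10.1 CPM. Psmd1, the largest cap subunit, rose from 289.6, 278, 288, 332 and 343 CPM to 599, 473, 607, 623 and 636 CPM (adjusted p = 2.1e-04). The ubiquitin-like protein Nedd8 fell from 219.7 ± 31.5 to 35.0 ± 23.9 CPM, and Uba3, of the enzyme that activates it, rose from 136.9 ± 44.2 to 426 ± 84.2 CPM. Cops2 and Cops8, of the COP9 signalosome that removes Nedd8 from cullins, rose as well (73.8 ± 13.7 to 433 ± 145 CPM for Cops2, 217 ± 31.1 to 589.9 ± 152 CPM for Cops8), as did Ube2d3, a widely used conjugating enzyme (1667, 1615, 2483, 2508 and 2408 CPM at 0 h, 6119.9, 5274, 6686, 5557 and 4110.4 CPM at 12 h, adjusted p = 5.4e-05). With the cohort-wide dispersion Psmd1 (adjusted p = 0.13) was not called.

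Of 24 tubulin and microtubule nucleation genes 10 (41.7%) fell and 1 (4.17%) rose. Tubb2a, a beta-tubulin, fell from 356, 343, 487, 467 and 461 CPM to 21.6, 75.3, 12.5, 18.1 and 23.9 CPM (log2 change -3.85 ± 0.37 (SE), adjusted p = 2.3e-06). In the actin list 8 of 29 fell and 5 rose, the latter with Capza2, which caps filament ends (191 ± 42.2 to 609 ± 157 CPM), and Spire1, a nucleator of the oocyte's actin mesh (347 ± 105.8 to 820.3 ± 223 CPM). In entry to the endoplasmic reticulum 12 of 37 fell, Sec61g of the channel from 41.1 ± 9.26 to 4.32 ± 2.84 CPM and the calcium-binding chaperone Calr from 186 ± 49.9 to 42.2 ± 23.6 CPM, and 6 rose, Spcs2 of the signal peptidase from 341 ± 48.2 to 779 ± 153 CPM. At the nuclear envelope Lbr, the lamin B receptor, fell from 206, 259, 275, 249 and 217 CPM to 74.4, 20.3, 55.9, 57.2 and 46.1 CPM (adjusted p = 4.2e-06), the importin Kpnb1 from 45.9 ± 13.6 to 14.7 ± 3.57 CPM, and Nup35 rose from 235 ± 44.5 to 439.6 ± 65.1 CPM, with 10 of the 45 genes higher and 14 lower. Idua, a lysosomal glycosidase, fell from 136.2, 149, 204, 165 and 175 CPM to 4.51, 8.68, 2.21, 2.86 and 0.548 CPM. In cholesterol synthesis, Msmo1 rose from 82.1 ± 20.7 to 229.7 ± 42.3 CPM and Idi1 from 23.4 ± 18.1 to 113.5 ± 30.01 CPM (4 of 12 genes higher, 2 lower). Shares higher were 17.2% in the actin list, 16.2% in the endoplasmic reticulum list and 22.2% at the nuclear envelope, near the 19.6% of all genes. Shares lower were 27.6%, 32.4% and 31.1%, where 19.4% of all genes were. In cholesterol synthesis 33.3% were higher and 16.7% lower. Spire1 was not called with the cohort-wide dispersion (adjusted p = 0.13).

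The hours between, given as group medians on a scale of 0 h to 12 h libraries and with no test, show when the change was made. Genes that rose at least 2-fold by 12 h had a median log2 distance from 0 h of 0.48 at 2 h (5 embryos), 0.94 at 4 h (2 embryos), 1.00 at 6 h (3 embryos), 1.13 at 8 h, 1.16 at 10 h and 1.35 at 12 h (5 embryos each). Genes that fell at least 2-fold stood at -0.45, -1.02, -1.15, -1.32, -1.53 and -1.56. The midpoint of the 12 h distance was first passed by 4 h in 78.5% of the genes that rose and in 63.4% of those that fell. The 4 h and 6 h groups are small, and their titles share 1 number series.

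Single genes kept different times. Elobl had a median of 3010.3, 831, 212, 152, 117.9, 79.7 and 56.6 CPM from 0 h to 12 h in steps of 2 h, and Calm2 one of 559, 228, 94.9, 62.5, 47.4, 23.5 and 26.4 CPM, so that most of their fall was over by 4 h. Mis18a kept its level at 2 h and lost it by 4 h, with medians of 261, 292, 23.1, 24.2, 17.1, 10.8 and 13.2 CPM. Mos fell late, with 854, 978, 609, 517, 518, 338 and 89.2 CPM, and passed the midpoint only at 12 h, as did Plat, Rdx, Smc3 and Rad51c among the named genes that fell. Ube2t went from 763 CPM at 8 h to 181 CPM at 10 h. Replicate 5 of 10 h stood far from the other embryos of its hour for Btg4 (26.3 CPM against 11703 or more), Mos (0.768 against 179 or more) and Calm2 (759 against 55.3 or less). Cdc45 was among the early risers, with 37.9, 103.9, 129.7, 124.6, 141, 199 and 199 CPM, while mt-Nd5 (309, 226, 275, 199, 410.3, 373 and 830.1 CPM) and Snrnp70, of the U1 splicing particle (8.35, 18.97, 12.1, 8.41, 7.96, 5.89 and 58.8 CPM), passed the midpoint only at 12 h.

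**Figure D4:**
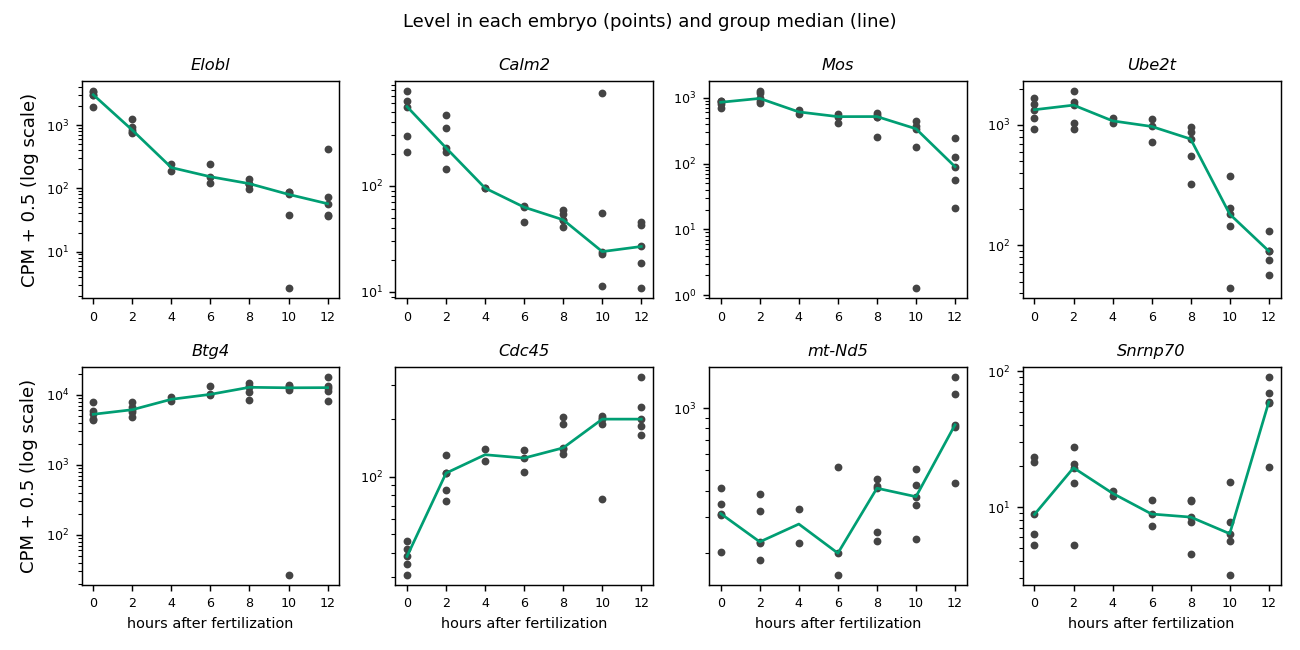
Level in each embryo (points; CPM + 0.5, log scale) against hours after fertilization (horizontal) for 8 genes, with a line through the group medians. Elobl and Calm2 fall within the first 4 h and Mos and Ube2t late, while Btg4 and Cdc45 rise early and mt-Nd5 and Snrnp70 late, the 4 h and 6 h groups hold 2 and 3 embryos, and 1 embryo of 10 h lies far from the rest for Btg4, Mos and Calm2.

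Base composition went with the direction of change. The 6935 genes with a transcript were cut into 5 equal groups by the GC content of that transcript. In the lowest, at 32.6% to 43.0% GC, 34.0% of genes were higher at 12 h and 9.37% lower, and the median change was 0.36. In the highest, at 53.3% to 68.4% GC, 8.87% were higher and 30.7% lower, and the median was -0.43. The shares changed steadily over the 3 groups between, and the difference between the outer medians, 0.80, stayed between 0.68 and 0.93 under all alternative fits. Leaving out the Zfp genes, which are poor in GC, gave 31.4% higher and 10.0% lower in the lowest group and 8.90% and 30.7% in the highest. By coding position, the fifth of genes with the lowest GC at the third codon position was higher in 29.4% and lower in 12.0%, and that with the highest in 10.5% and 27.1%. The mean GC content of the transcripts weighted by their CPM was 46.4% to 46.8% in the 0 h embryos and 45.5% to 46.1% in those of 12 h. Whether amplification or sequencing of GC-rich cDNA differed between these groups was not tested. TTTTAT and TTTTAAT hold no G or C, so their higher share in the genes that rose cannot be told apart from this gradient.

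**Figure D5:**
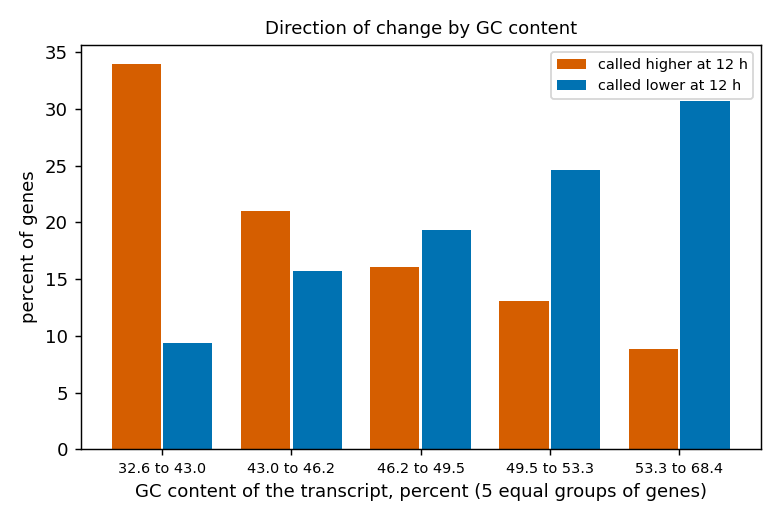
Percent of genes called higher (orange) and lower (blue) at 12 h in 5 equal groups of genes ordered by the GC content of their transcript, 1387 genes in each. The share higher falls from 34.0% to 8.87% and the share lower rises from 9.37% to 30.7%.

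Repeat families were counted in the same libraries and scaled by the gene counts. Of 350 families tested 73 (20.9%) were higher and 18 (5.14%) lower at 12 h, 30 (8.57%) and 13 (3.71%) of them by at least 2-fold, and the families' summed level was 41598, 43925, 40448, 37704 and 37450.3 CPM at 0 h and 49846, 56866, 48343, 42210.5 and 44715 CPM at 12 h. Without the TMM factor the split was 33 higher and 41 lower, and with the cohort-wide dispersion 14 and 8 families were called, so the balance of directions is uncertain. Leaving out 12 h replicate 3 alone left 48 families higher, and leaving out 12 h replicate 5 alone put 29.97% of those tested higher, while 7 of the 8 families named here were called in every fit. The endogenous retrovirus family MMERVK9C_I-int rose from 61.7, 62.3, 76.6, 74.6 and 65.2 CPM to 187, 158, 148, 138.3 and 127.2 CPM (log2 change 1.15 ± 0.14 (SE), adjusted p = 7.4e-06), and RLTR30E_MM, RLTR14-int and RLTR40 rose from 42.6 ± 18.1, 53.5 ± 9.77 and 409 ± 96.98 CPM to 125.99 ± 15.7, 139.7 ± 27.5 and 917 ± 178 CPM. MTA_Mm-int, of the MaLR elements abundant in oocyte RNA, held 4355 ± 906 CPM and 10596 ± 4073 CPM, a call lost with the cohort-wide dispersion (adjusted p = 0.16), without the TMM factor (adjusted p = 0.055) and without 0 h replicates 1 and 5 and 12 h replicate 5. The young LINE-1 family L1Md_T fell from 969.5, 1169, 1249, 504 and 369 CPM to 261, 273, 265, 272 and 208 CPM (log2 change -1.74 ± 0.33 (SE), adjusted p = 0.0046), L1MEd from 507.1 ± 255 to 83.9 ± 9.13 CPM and the early transposon family RLTRETN_Mm from 45.8 ± 10.8 to 12.8 ± 4.30 CPM. Reads from a repeat inside a gene's transcript may count for the family as well, so these values do not separate the elements' own transcripts from those of host genes.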

How the data were processed

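Poly(A) RNA of single mouse embryos was copied with SMART-Seq v4 and made into Nextera XT libraries, per the labels' protocols. The authors deposited 1 table of estimated counts for 55401 genes and 873 repeat families, made with Trimmomatic 0.39, STAR and featureCounts on mm10, per the submitters' processing notes. Annotation release, strand and multimapping settings are not given in the sources used here. Of the non-zero gene values in these 10 libraries, 25.8% were not whole (tolerance 1e-06). Counts had been assumed when the tests were chosen, so the values were rounded before the fits. Names and 3′ UTRs came from GENCODE M21 on GRCm38, which matched 55141 genes.

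The fit was edgeR 4.0.16 in R 4.3.3 (filterByExpr, TMM, robust quasi-likelihood test, Benjamini-Hochberg adjustment over 8232 genes, adjusted p under 0.05) on the 5 libraries of 0 h and the 5 of 12 h. Repeat families used the same scaling and were adjusted over 350. P-values measure the spread between these embryos. On simulated data of 8232 genes, with 100 changed 4-fold and 100 changed 2-fold, it recovered 85% and 35% of them. In the data 39% of genes were called, and the adjustment depends on how many genes change, so these rates may not carry over. Named genes are the 12 largest changes in CPM and the 8 largest log2 changes each way (the latter with at least 20 CPM in the higher group) among called genes whose groups did not overlap, up to 3 called genes per direction in each of 42 lists, and 38 key regulators, of which 35 were tested, 13 called higher and 13 lower. Members and lists were chosen with earlier results of these data known. Alternatives were DESeq2 1.42.0, no TMM factor, no filter, a replicate block, and fits without single or several libraries. Another was a fit of 81 embryo libraries, 10 h replicate 5 among them, with its own filter, TMM factors and dispersion. Oocyte and morula libraries, processed in separate batches, were not used here. Some genes that the rule names and 1 sequence are not reported here.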

Additional observations from a re-analysis of the deposited data

Results flagged for a closer look

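The groups examined covered the named genes, named repeat families, marker lists and measures of the whole library. Those measures were gene counts, genes with a count and the shares of the mitochondrial genome and of the most abundant genes. In 29 of the 352 groups of 5 embryos 1 embryo stood apart from the other 4: its gap to the nearest embryo was over 0.71 of the group's range. Chance sets about 1 in 20 groups apart in this way. Replicate 2 of 12 h was apart as the highest embryo for Bub3 (211 CPM), Elobl (449.6 CPM), Gm5514 (1859 CPM), Nedd8 (76.2 CPM), Psmb2 (224 CPM) and Tubb2a (75.3 CPM). Replicate 2 of 12 h was apart as the lowest embryo for Psmd1 (473 CPM) and Tet3 (259 CPM). Replicate 4 of 12 h was apart as the highest embryo for Cpeb1 (99.2 CPM), Mcm7 (82.98 CPM), Pabpn1l (351 CPM) and Plat (1161 CPM). Replicate 4 of 12 h was apart as the lowest embryo for Clspn (56.3 CPM), Gm4924 (8.58 CPM) and MTA_Mm-int (3520.3 CPM). Replicate 5 of 12 h was apart as the highest embryo for Lgmn (122.8 CPM). Replicate 5 of 12 h was apart as the lowest embryo for Nup35 (326 CPM) and L1Md_T (208 CPM). At 0 h the embryo apart was the highest for Cks2 in replicate 4 (972 CPM), Mcm2 in replicate 1 (149 CPM), Pole3 in replicate 4 (217 CPM), Spire1 in replicate 4 (535 CPM) and Tcstv1 in replicate 4 (188 CPM). At 0 h the embryo apart was the lowest for Nasp in replicate 3 (314 CPM), Wee2 in replicate 2 (482 CPM) and Ybx2 in replicate 5 (20.3 CPM). The cumulus and granulosa list was apart in 0 h replicate 5 at 769.8 CPM and in 12 h replicate 5 at 1321 CPM, and the blood and oviduct list in 0 h replicate 1 at 2169 CPM. Causes were not tested.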

How the results depend on the processing

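The cohort-wide fit, with its own filter, TMM factors and dispersion, called 1623 genes in all, 762 higher and 861 lower. It called 22 repeat families, 14 higher and 8 lower. Without the TMM factor 1011 genes were higher and 2254 lower, and 33 families higher and 41 lower. No filter gave 28 families lower. Without 0 h replicates 1 and 5, 42 families were higher. Leaving out 1 embryo at a time gave 2704 to 3416 genes called, 1343 to 1652 higher and 1361 to 1764 lower. The same fits called 16.8% to 34.5% of the families tested, 13.2% to 29.97% higher (the fewest, 48, without 12 h replicate 3) and 3.57% to 5.95% lower. DESeq2 called 1786 genes higher and 1750 lower. The fit without 0 h replicates 1 and 5 and 12 h replicate 5 was chosen after seeing the data. Of the 158 named genes and families called, 41 lost the call with the cohort-wide dispersion, 5 without the TMM factor, 7 without 0 h replicates 1 and 5, 0 with DESeq2, and none changed direction in any fit run; the causes were not tested. Of the named genes that were not called, a few changed sign between fits. With 1 embryo left out, the log2 change lay between -0.17 and 0.039 for Cdc20, between -0.093 and 0.33 for Cdc6, between -0.28 and 0.29 for Nfya and between -0.12 and 0.052 for Yap1. The sign also changed without the TMM factor for Cdc6 (-0.15), Fbxo43 (-0.12) and Nfya (-0.16), with the replicate block for Nfya (-0.065) and without 0 h replicates 1 and 5 and 12 h replicate 5 for Nfya (-0.28). Replicate numbers did not pair the embryos: same-numbered libraries correlated in their deviations at -0.124 to 0.157, and 1 of 5 correlated best with its own number. With the replicate block 3044 genes were called, 1476 higher and 1568 lower, and 89 families. Depth limits low genes, and shared reads limit near copies.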
